A study of Mus musculus with 9 samples.

Results

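The 9 plasma membrane carriers of amino acids are described here in the E0771 line of mouse mammary tumour cells: Slc1a4, Slc1a5, Slc3a2, Slc7a1, Slc7a5, Slc7a11, Slc38a1, Slc38a2 and Slc6a9. They were taken as the probe sets whose gene symbol in the platform annotation is one of the 9 names, and each name matched 1 probe set, so that the group is 9 of the 22206 probe sets on the array. Messenger RNA was measured on 9 arrays, 3 for each group. These were cells transduced with the hairpin shPC28, cells transduced with the hairpin shPC25, and cells transduced with a scramble hairpin (scram). Both shPC25 and shPC28 are short hairpin RNAs directed against Pcx, which encodes pyruvate carboxylase, the mitochondrial enzyme that makes oxaloacetate from pyruvate. All 3 groups were lentivirus-transduced, antibiotic-selected derivatives of the same line, grown in medium that held 10% FBS, 4 mM glutamine and 5.6 mM glucose, and none received a further treatment. The comparisons of shPC28 and of shPC25 with scram share the 3 scram arrays. Nothing in the labels ties the 3 arrays of a group to separate cultures, and p-values therefore cover the spread among these arrays alone, which could be technical.

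As background, cells take up amino acids through families of carriers with overlapping substrates. Sodium-coupled carriers such as Slc38a1 and Slc38a2 load the cell with small neutral amino acids, including glutamine, and exchangers such as Slc1a5 and Slc7a5 then trade these for others, including leucine. Slc7a5 and Slc7a11 reach the membrane only when bound to the heavy chain encoded by Slc3a2. Transcripts of many carriers are known to rise when amino acids run short, through the transcription factor ATF4, which is itself controlled mainly at the level of translation, and the antioxidant factor NRF2 is known to raise Slc7a11.

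Values are on a log2 scale, so that a difference of 1 is a doubling of signal; the base was taken from the values because it is not given in the sources used here. Groups were compared within a probe set, and the members were not ranked by level, since probe sets differ in brightness for the same amount of RNA. Pcx had signals of 7.01, 6.85 and 6.57 in shPC28 cells, 5.64, 5.43 and 5.53 in shPC25 cells, and 9.18, 8.84 and 9.20 in scram cells, so that it was lower with both hairpins, and lower with shPC25 than with shPC28 (log2 difference, shPC28 minus shPC25, 1.28 ± 0.15, SE, limma, adjusted p = 0.000307). The median signal of an array lay between 4.88 and 5.04, and arrays of 1 group correlated with each other at 0.995 to 0.998 across probe sets. Of the epithelial markers 3 of 5 (Epcam, Cdh1 and Krt8) and of the mesenchymal markers 2 of 4 (Vim and Zeb1) lay on average above 4.95, the median signal over probe sets, while Krt18, Krt19, Cdh2 and Fn1 lay below it. So did 4 of 4 macrophage and 4 of 4 endothelial markers, and 3 of 4 lymphocyte markers, all but Cd4. With shPC28, 2 epithelial markers passed as higher and 1 as lower, and 1 mesenchymal marker passed in each direction. With shPC25, 1 epithelial marker was higher and 1 mesenchymal marker lower. Krt8 was higher and Zeb1 lower with both hairpins. The dim Cdh5, an endothelial marker, was lower with both, and the dim Cd79a, a lymphocyte marker, was lower with shPC28. No macrophage marker passed. Of the 3 fibroblast markers, Pdgfrb fell by 2.12 with shPC28 (adjusted p = 0.000135) and had a change of -0.36 with shPC25 (adjusted p = 0.371). Col1a1 fell by 0.63 with shPC28 (adjusted p = 0.00866) and by 0.96 with shPC25 (adjusted p = 0.00283). The dim Dcn passed with neither, and its changes had the other sign. They were 0.66 with shPC28 (adjusted p = 0.0506), with every shPC28 array above every scram array, and 0.08 with shPC25 (adjusted p = 0.856). The mean level of the 3 was 6.01 to 6.62 on the shPC28 arrays, 6.48 to 6.58 on the shPC25 arrays and 6.88 to 7.09 on the scram arrays. The part of these marker changes in the transporter results was not tested. Bulk RNA cannot tell fewer cells of a type from less RNA per cell.

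The sequence around the transcription start was examined for the members that RefSeq's promoter table holds, because ATF4 and NRF2 act through known DNA elements. Windows of 300 bases, 250 before and 50 after an annotated start on GRCm38.p6, were found for 6 of the 9 members (9 windows in all, with 2 for Slc7a1 and 3 for Slc6a9); Slc1a5, Slc7a5 and Slc38a1 had no match. Both strands were searched for the C/EBP-ATF element bound by ATF4 (TGATGNAA), the core of the antioxidant response element bound by NRF2 (TGACNNNGC) and the E-box bound by MYC (CACGTG). The windows that hold the element of ATF4 (Slc1a4 and Slc7a11) are shown together with those of Slc38a2 and Slc3a2, the members with the largest decrease and the largest increase that both hairpins shared. Each runs 5′ to 3′ on the strand of the gene, and capitals mark the motif matches.
Slc1a4, chr11:20332664-20332963, minus strand: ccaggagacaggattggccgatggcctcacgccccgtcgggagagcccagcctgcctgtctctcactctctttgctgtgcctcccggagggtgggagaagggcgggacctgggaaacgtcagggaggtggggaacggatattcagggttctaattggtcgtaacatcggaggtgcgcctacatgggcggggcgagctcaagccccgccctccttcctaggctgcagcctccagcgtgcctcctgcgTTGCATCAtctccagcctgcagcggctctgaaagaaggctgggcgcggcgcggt
Slc7a11, chr3:50443564-50443863, minus strand: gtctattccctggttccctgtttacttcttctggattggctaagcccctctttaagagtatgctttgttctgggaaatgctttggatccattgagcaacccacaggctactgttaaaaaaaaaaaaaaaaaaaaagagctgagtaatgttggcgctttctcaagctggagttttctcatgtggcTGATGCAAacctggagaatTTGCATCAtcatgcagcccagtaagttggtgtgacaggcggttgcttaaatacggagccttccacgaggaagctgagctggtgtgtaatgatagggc
Slc38a2, chr15:96699679-96699978, minus strand: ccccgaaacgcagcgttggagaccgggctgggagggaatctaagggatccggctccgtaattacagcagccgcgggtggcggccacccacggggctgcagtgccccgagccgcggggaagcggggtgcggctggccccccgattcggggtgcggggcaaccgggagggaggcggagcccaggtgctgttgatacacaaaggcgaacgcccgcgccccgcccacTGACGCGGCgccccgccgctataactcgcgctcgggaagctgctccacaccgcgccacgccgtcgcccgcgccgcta
Slc3a2, chr19:8713848-8714147, minus strand: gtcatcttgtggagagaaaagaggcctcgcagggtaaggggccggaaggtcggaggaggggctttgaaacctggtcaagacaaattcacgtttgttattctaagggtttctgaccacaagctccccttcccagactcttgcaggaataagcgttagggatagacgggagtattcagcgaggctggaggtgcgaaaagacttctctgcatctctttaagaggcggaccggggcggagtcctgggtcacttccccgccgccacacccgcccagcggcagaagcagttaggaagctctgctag
The Slc1a4 window holds TTGCATCA, the C/EBP-ATF element on the opposite strand, at bases 247 to 254. The Slc7a11 window holds the element once on each strand, TGATGCAA at bases 185 to 192 and TTGCATCA at bases 204 to 211. The element thus stood in 2 of the 9 member windows, against 3.97% of the 32851 windows of the genome. The Slc38a2 window holds TGACGCGGC, a match to the antioxidant core, at bases 224 to 232, and 1 window of Slc7a1 and 2 of Slc6a9 hold such a match too, which makes 4 of 9 member windows, against 12.4% of all windows. The E-box stood in 0 of the 9 member windows, against 7.15% of all windows, and the Slc3a2 window holds no match to any of the 3 motifs. A match is a description of these letters and not a measured binding site, and a missing match says only that the letters are not in this window.

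The first question was how the carriers differed in each hairpin line from scram. With shPC28, 5 of the 9 members passed the test, 2 higher (Slc3a2 and Slc6a9) and 3 lower (Slc1a4, Slc38a1 and Slc38a2), where the test was limma with an adjusted p under 0.05 over all 22206 probe sets. In that comparison 41.7% of all probe sets passed, 21.2% as higher and 20.5% as lower. The members and the gene lists below were chosen with earlier results of these data known. Shares set beside those of all probe sets are therefore descriptions and not tests. With shPC25, 7 of the 9 passed, 6 higher (Slc1a4, Slc3a2, Slc7a1, Slc7a5, Slc7a11 and Slc6a9) and 1 lower (Slc38a2), where 20.4% of all probe sets passed, 9.19% as higher and 11.3% as lower. With shPC28, 5 of the 9 members had no overlap between its arrays and those of scram, against 51.1% of all probe sets, and with shPC25 9 of 9 had none, against 38.9%. The median log2 change of the members was 0.12 with shPC28, against 0.10 for all probe sets, and 0.59 with shPC25, against 0.04; the members' shPC28 median was -0.08 when arrays were centred on olfactory receptor probe sets, which are expected to be silent in these cells. Between the hairpins, 4 members passed (Slc1a4, Slc7a1, Slc38a1 and Slc38a2), all 4 lower in shPC28 cells, where 26.2% of all probe sets passed, 11.8% as higher and 14.5% as lower. Arrays of the hairpins did not overlap for 6 members, against 39.5% of all probe sets. The median of the members in that comparison was -0.51, against 0.04 for all probe sets. No call among these changed direction when the arrays were rescaled in any of the 3 ways tried. All 9 members were among the brighter 50% of probe sets, which passed more often. Shares without overlap were counted over all probe sets alone, and not among the brighter 50%. Without the dimmer 50%, 8216 of 11103 probe sets passed with shPC28, 5244 with shPC25 and 6168 between the hairpins. In that setting 3 members were higher and 3 lower with shPC28, and 7 higher and 1 lower with shPC25. Between the hairpins 5 were then lower in shPC28 cells.

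**Figure D1:**
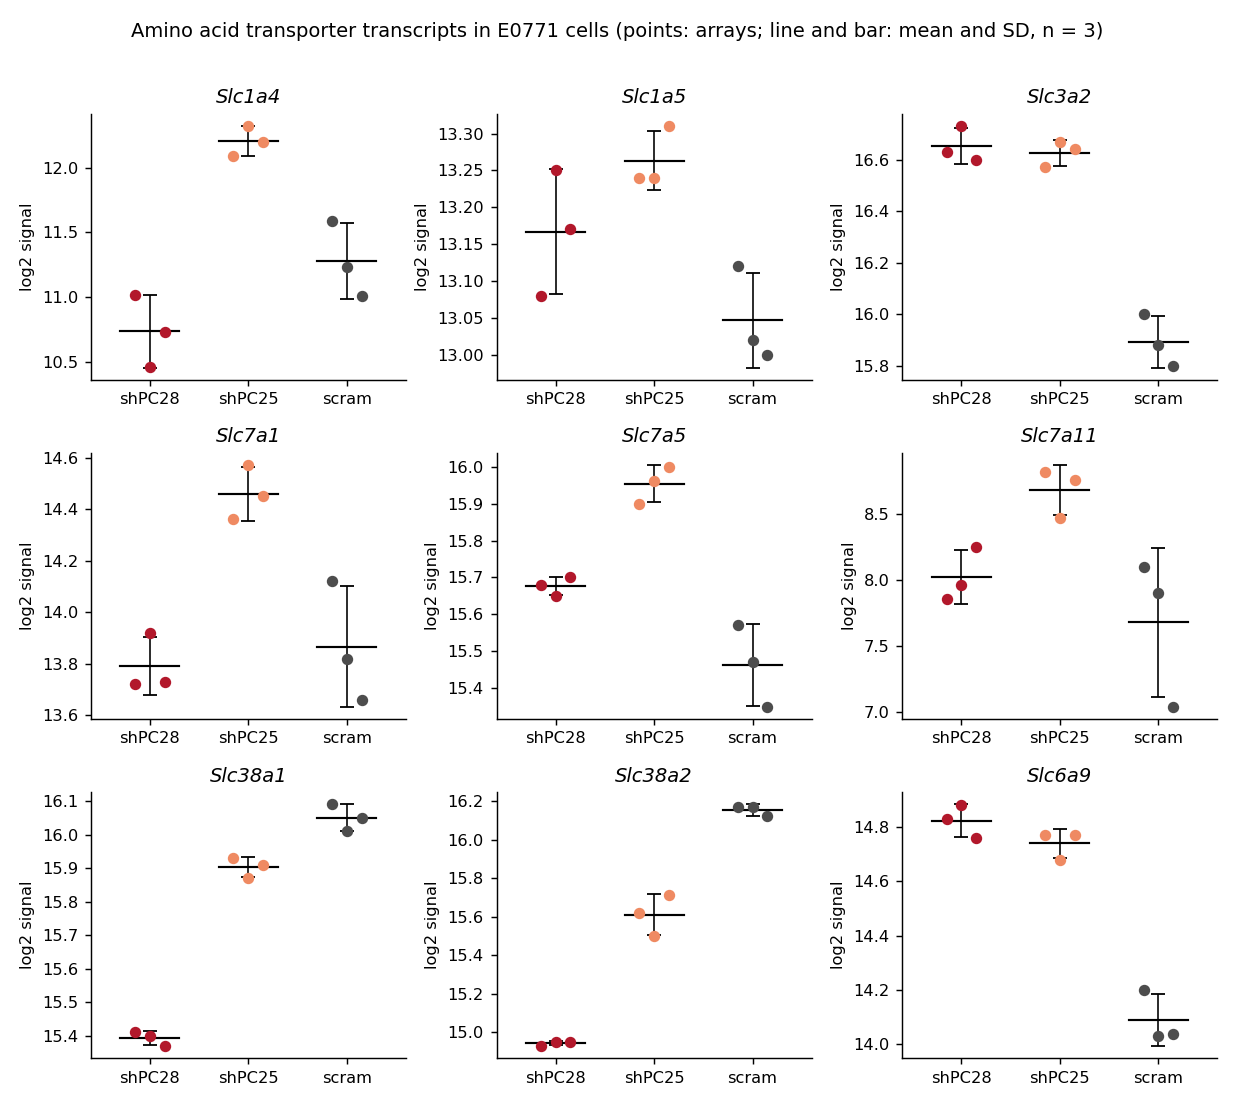
Log2 signal (vertical axis, a scale of its own for each gene) of the 9 transporter transcripts on each array of shPC28, shPC25 and scram cells; points are arrays, and the line and bar are the mean and SD (n = 3). Slc3a2 and Slc6a9 lie above scram on all arrays of both hairpins, Slc38a2 lies below scram on all of them, and Slc1a4 lies highest in shPC25 cells.

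**Figure D2:**
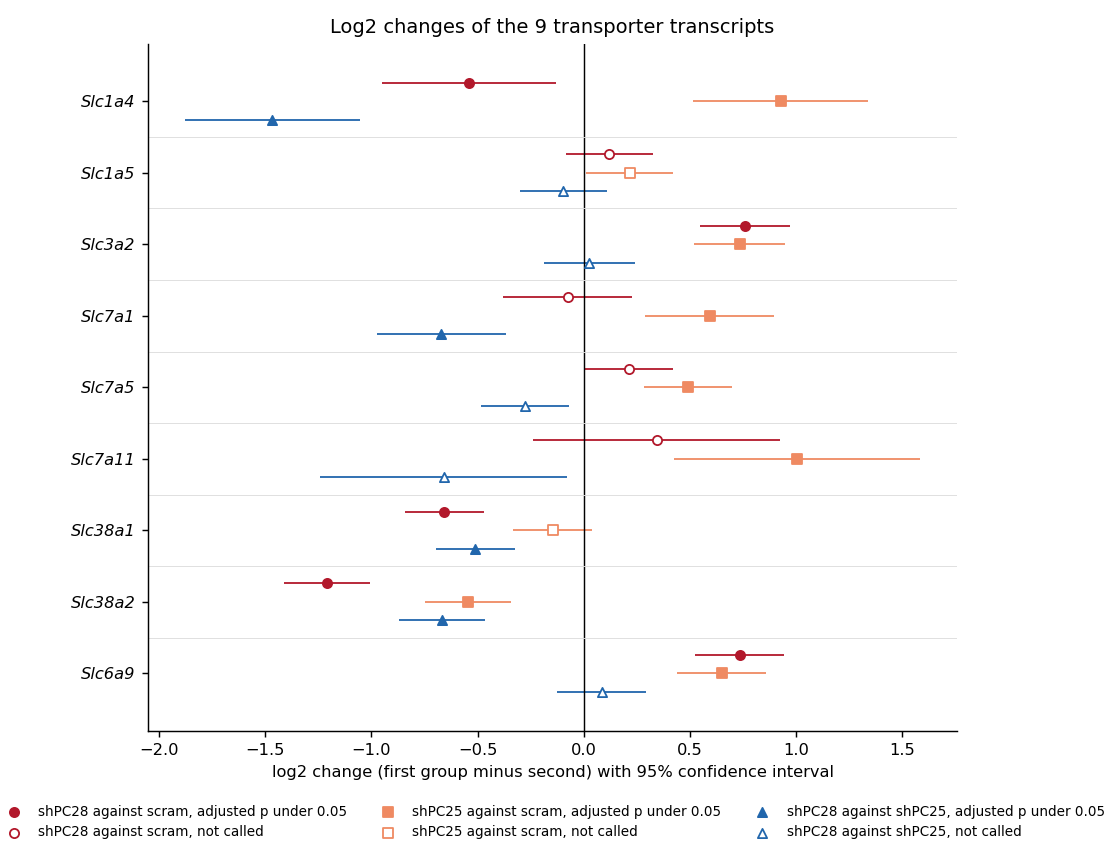
Log2 change of each transporter (horizontal axis, first group minus second) with its 95% confidence interval, for shPC28 against scram, shPC25 against scram and shPC28 against shPC25. Filled symbols passed the test at an adjusted p under 0.05. The symbols for Slc1a4 lie on opposite sides of 0 for the 2 hairpins, at -0.54 for shPC28 and 0.93 for shPC25.

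Slc3a2 and Slc6a9 rose with both hairpins. Slc3a2 encodes the heavy chain of CD98, which carries several light-chain transporters to the membrane. Its signal was 16.63, 16.73 and 16.60 in shPC28 cells, 16.57, 16.67 and 16.64 in shPC25 cells, and 16.00, 15.88 and 15.80 in scram cells. Every array of either hairpin was thus brighter than every scram array, and the hairpins overlapped. The log2 change was 0.76 ± 0.09 with shPC28 (SE; 1.69-fold, adjusted p = 0.000172) and 0.73 ± 0.09 with shPC25 (1.66-fold, adjusted p = 0.00102), and the difference between the hairpins was 0.03, with a 95% confidence interval of -0.19 to 0.24. Slc6a9 encodes the glycine transporter GlyT1. It measured 14.83, 14.88 and 14.76 in shPC28 cells, 14.77, 14.68 and 14.77 in shPC25 cells, and 14.20, 14.03 and 14.04 in scram cells. Here too all arrays of both hairpins lay above all scram arrays. The change was 0.73 ± 0.09 with shPC28 (1.66-fold, adjusted p = 0.000192) and 0.65 ± 0.09 with shPC25 (1.57-fold, adjusted p = 0.00169), with a difference between the hairpins of 0.08 (95% confidence interval -0.13 to 0.29). Of all pairs of members, Slc3a2 and Slc6a9 had the most alike pattern over the 9 arrays: once each was centred on its own mean, they differed by a root mean square of 0.062 on the log2 scale.

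The light chains that pair with Slc3a2 did not move as one. Slc7a5 encodes LAT1, which brings in leucine and other large neutral amino acids in exchange for glutamine. Its signal was 15.68, 15.65 and 15.70 in shPC28 cells, 15.90, 15.96 and 16.00 in shPC25 cells, and 15.57, 15.47 and 15.35 in scram cells. The 3 groups did not overlap, with scram the lowest and shPC25 the highest. Slc7a5 rose by 0.49 ± 0.09 with shPC25 (1.40-fold, adjusted p = 0.00635). The change with shPC28 was 0.21 ± 0.09 and did not pass (adjusted p = 0.0958, 95% confidence interval 0.00 to 0.42), nor did the difference between the hairpins (-0.28 ± 0.09, adjusted p = 0.0555); these were the calls most often gained under other settings, with an adjusted p of 0.0021 for shPC28 and 0.000289 between the hairpins when the variance was allowed to follow the signal level.

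Slc7a11 encodes xCT, the chain that imports cystine in exchange for glutamate and so supplies cysteine for glutathione. It measured 7.86, 7.96 and 8.25 in shPC28 cells, 8.82, 8.47 and 8.76 in shPC25 cells, and 8.10, 7.90 and 7.04 in scram cells. Scram array 3 stood low, and the scram SD of 0.56 was the widest of any member and group. Slc7a11 rose by 1.0 ± 0.26 with shPC25 (adjusted p = 0.0241), a call that was lost without shPC25 array 1 (adjusted p = 0.0757) and without shPC25 array 3 (adjusted p = 0.069). With shPC28 the change was 0.34 ± 0.26 (adjusted p = 0.319, 95% confidence interval -0.24 to 0.92). Without scram array 3 that value was 0.02, and after quantile normalization it was 0.90 with an adjusted p of 0.0188. The difference between the hairpins was -0.66 ± 0.26 (adjusted p = 0.0931), with no overlap between their arrays, and it passed without scram array 3 (adjusted p = 0.0144).

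Of the other light chains of Slc3a2, Slc7a7 and Slc7a6 went in opposite directions. Slc7a7 encodes y+LAT1 and Slc7a6 encodes y+LAT2, which both exchange cationic for neutral amino acids. Slc7a7 measured 10.12, 10.16 and 10.11 in shPC28 cells, 9.59, 9.69 and 9.35 in shPC25 cells, and 8.93, 8.80 and 8.72 in scram cells. It rose by 1.31 ± 0.11 with shPC28 (adjusted p = 1.93e-05) and by 0.73 ± 0.11 with shPC25 (adjusted p = 0.00247), and was higher in shPC28 than in shPC25 cells by 0.59 ± 0.11 (adjusted p = 0.00464). Slc7a6 measured 12.36, 12.34 and 12.54 in shPC28 cells, 13.15, 13.12 and 13.23 in shPC25 cells, and 13.43, 13.63 and 13.58 in scram cells. It fell by 1.13 ± 0.10 with shPC28 (adjusted p = 2.42e-05) and by 0.38 ± 0.10 with shPC25 (adjusted p = 0.028), and the shPC25 call was lost with any of 5 arrays left out (scram array 2 or 3 or any shPC25 array; highest adjusted p 0.0976) and when arrays were centred on their medians. The groups of both genes stood in order, with shPC25 between shPC28 and scram. Slc7a8 and Slc7a10 were dim on every array, at 2.98 or less, and passed in no comparison.

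**Figure D3:**
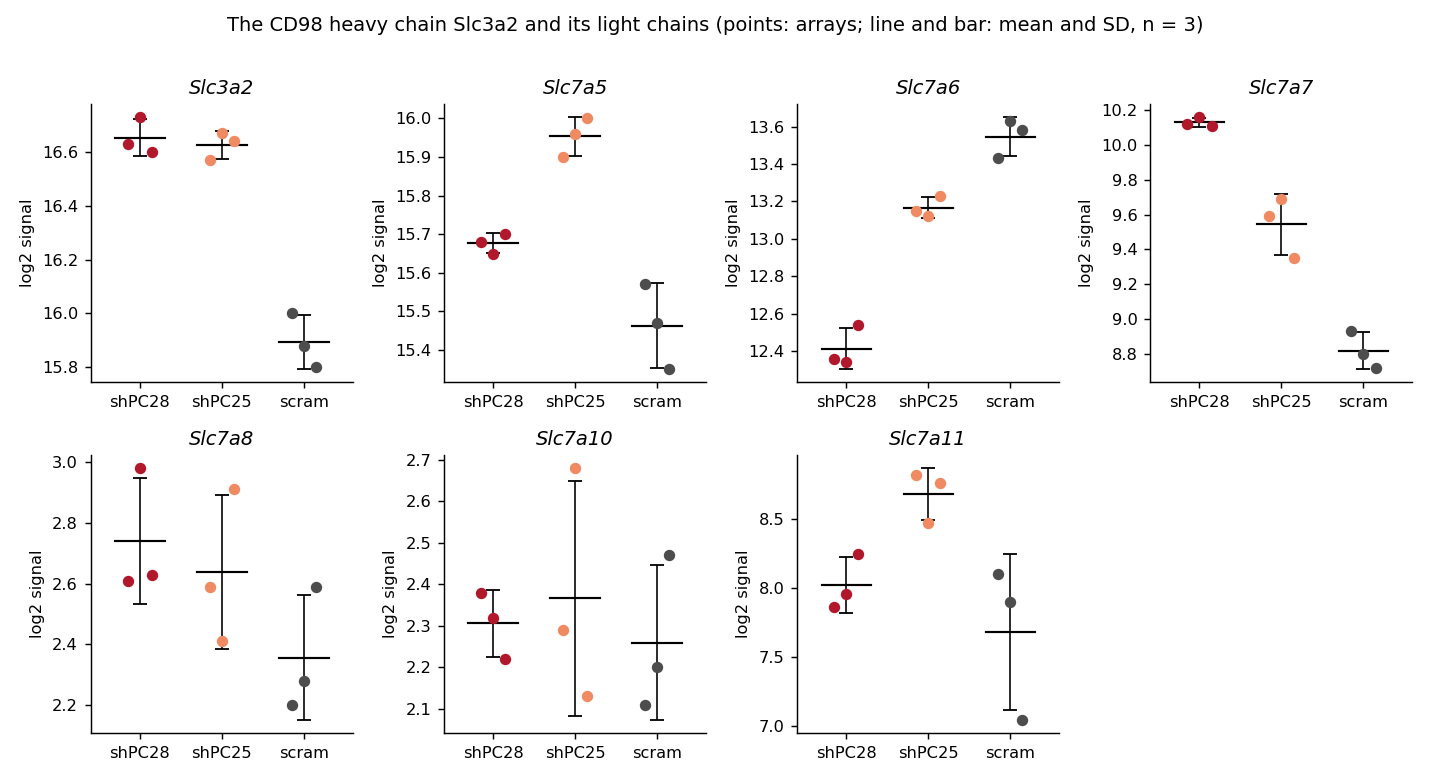
Log2 signal (vertical axis, a scale of its own for each gene) of the CD98 heavy chain Slc3a2 and of 6 light chains on each array of shPC28, shPC25 and scram cells, with the mean and SD (n = 3). Slc7a7 steps up and Slc7a6 steps down from scram through shPC25 to shPC28, while Slc7a5 and Slc7a11 are highest in shPC25 cells and the dim Slc7a8 and Slc7a10 passed in no comparison.

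Slc38a2 fell with both hairpins and Slc38a1 with shPC28, and both of these sodium-coupled carriers were lower in shPC28 than in shPC25 cells. Both take up glutamine, alanine and other small neutral amino acids, and Slc38a2 (SNAT2) is known for its induction when amino acids are scarce. Slc38a2 measured 14.93, 14.95 and 14.95 in shPC28 cells, 15.62, 15.50 and 15.71 in shPC25 cells, and 16.17, 16.17 and 16.12 in scram cells. The groups were wide apart, with shPC28 the lowest and scram the highest. Slc38a2 fell by 1.21 ± 0.09 with shPC28 (2.31-fold lower, adjusted p = 8.69e-06) and by 0.54 ± 0.09 with shPC25 (1.46-fold lower, adjusted p = 0.00344), and it was lower in shPC28 than in shPC25 cells by a log2 difference of -0.67 ± 0.09 (adjusted p = 0.00071). Each of these calls held under all 20 alternative settings.

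Slc38a1 (SNAT1) measured 15.41, 15.40 and 15.37 in shPC28 cells, 15.93, 15.87 and 15.91 in shPC25 cells, and 16.09, 16.01 and 16.05 in scram cells. These arrays too stood apart in the same order, but shPC25 lay close to scram. Slc38a1 fell by 0.66 ± 0.08 with shPC28 (1.58-fold lower, adjusted p = 0.000176). The shPC25 change of -0.15 ± 0.08 did not pass (adjusted p = 0.256, 95% confidence interval -0.33 to 0.04), and the hairpins differed by -0.51 ± 0.08 (1.42-fold lower in shPC28 cells, adjusted p = 0.00177). Slc38a4, another carrier of the same system that is dim in these cells, went the other way: it measured 5.52, 5.52 and 5.27 in shPC28 cells, 4.33, 4.59 and 4.25 in shPC25 cells, and 3.62, 3.82 and 4.26 in scram cells. It rose by 1.54 ± 0.17 with shPC28 (adjusted p = 0.000102), while its shPC25 change was 0.49 ± 0.17 (adjusted p = 0.082).

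The neutral exchangers Slc1a4 and Slc1a5 behaved differently from each other. Slc1a4 encodes ASCT1, which exchanges alanine, serine and cysteine. It measured 11.02, 10.46 and 10.73 in shPC28 cells, 12.09, 12.32 and 12.20 in shPC25 cells, and 11.59, 11.23 and 11.01 in scram cells. The shPC25 arrays lay above all others, and the highest shPC28 array overlapped the lowest scram array. Slc1a4 rose by 0.93 ± 0.18 with shPC25 (1.90-fold, adjusted p = 0.00757) under all alternatives. With shPC28 it fell by 0.54 ± 0.18 (1.45-fold lower, adjusted p = 0.0397), but this call was lost in 12 of 20 alternatives, with an adjusted p of up to 0.176 after quantile normalization. Among single arrays it was lost without scram array 1 (change -0.38) or 2, without any 1 of the shPC25 arrays, and without shPC28 array 2 (change -0.40) or 3. Its difference between the hairpins, -1.47 ± 0.18 (2.76-fold lower in shPC28 cells, adjusted p = 0.000454), was the largest of the 9 members.

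Slc1a5 encodes ASCT2, a major route of glutamine entry in tumour cells. It measured 13.08, 13.25 and 13.17 in shPC28 cells, 13.24, 13.24 and 13.31 in shPC25 cells, and 13.12, 13.02 and 13.00 in scram cells. The shPC25 arrays lay above the scram arrays by little, and the shPC28 arrays overlapped both. Slc1a5 was the only member that passed with neither hairpin: the change was 0.12 with shPC28 (adjusted p = 0.324, 95% confidence interval -0.08 to 0.32) and 0.22 with shPC25 (adjusted p = 0.131, interval 0.01 to 0.42).

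Slc7a1 encodes CAT1, the main carrier of arginine and lysine in most cells. It measured 13.72, 13.92 and 13.73 in shPC28 cells, 14.36, 14.57 and 14.45 in shPC25 cells, and 14.12, 13.82 and 13.66 in scram cells. Again shPC25 stood above the rest, while shPC28 lay within the scram range. Slc7a1 rose by 0.59 ± 0.13 with shPC25 (1.51-fold, adjusted p = 0.0144), a call lost narrowly without scram array 2 (adjusted p = 0.0529), scram array 3 (adjusted p = 0.0534) or shPC25 array 2 (adjusted p = 0.0526). The shPC28 change was -0.08 (adjusted p = 0.682, 95% confidence interval -0.38 to 0.23), and the difference between the hairpins was -0.67 ± 0.13 (1.59-fold lower in shPC28 cells, adjusted p = 0.00588).

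Against scram, Slc7a1, Slc7a5 and Slc7a11 thus passed with shPC25 and not with shPC28, and Slc38a1 with shPC28 and not with shPC25. The difference between the hairpins itself passed for Slc7a1 and Slc38a1 and did not pass for Slc7a5 or Slc7a11.

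Of 34 other plasma membrane amino acid carriers, 26 had no group mean above 4.95, so that few could be read well. With shPC28, 4 were higher and 4 lower, or 23.5% against 41.7% of all probe sets. Without the dimmer 50% of probe sets, 5 of the 7 left passed with shPC28, against 8216 of 11103 probe sets. With shPC25, 1 was higher and 3 lower, or 11.8% against 20.4%, and the count was 2 without scram array 2, shPC25 array 1 or shPC25 array 2. Between the hairpins 2 were higher and 2 lower in shPC28 cells. The list's median change was 0.20 with shPC28, or -0.0017 with olfactory centring, and 0.08 with shPC25. Of the 8 carriers with a group mean above 4.95, 6 passed with shPC28 (2 higher, 4 lower) and 4 with shPC25 (1 higher, 3 lower). This selection used the groups compared, and Slc38a4 was among the 8 through its shPC28 arrays alone. Of the 7 left when the dimmer 50% of probe sets by overall mean was removed, the median was -0.76 with shPC28 and -0.38 with shPC25. Slc6a6, the taurine transporter, fell by 1.28 ± 0.10 with shPC28 (adjusted p = 1.46e-05) and by 0.70 ± 0.10 with shPC25 (adjusted p = 0.00202). Slc43a2, which carries large neutral amino acids without sodium, fell by 0.82 ± 0.15 with shPC28 (adjusted p = 0.00175) and by 0.57 ± 0.15 with shPC25 (adjusted p = 0.0263), the shPC25 call being lost with any of 5 arrays left out and after quantile normalization. The remaining calls with shPC28 were the glutamate carriers Slc1a1 (0.50) and Slc1a2 (0.69), both dim, and Slc7a3, a cationic amino acid carrier, at -0.76, a call lost with any of 4 arrays left out.

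The regulators of the amino acid response were examined next, because ATF4 and its partners act on several of the members. Atf4 itself measured 16.19, 16.21 and 16.16 in shPC28 cells, 16.33, 16.39 and 16.34 in shPC25 cells, and 16.33, 16.24 and 16.20 in scram cells. Its change of -0.07 with shPC28 (adjusted p = 0.54) and of 0.10 with shPC25 (adjusted p = 0.48) did not pass, and its protein was not measured. Of the 18 regulators on the array, 3 were higher and 6 lower with shPC28 (50%, against 41.7% of all probe sets; median change -0.24), and 7 were higher and 3 lower with shPC25 (55.6%, against 20.4%; median 0.18). Between the hairpins, 2 were higher and 6 lower in shPC28 cells (44.4%, against 26.2%). All 18 were among the brighter 50% of probe sets, which passed more often. Without the dimmer 50%, 3 were higher and 9 lower with shPC28, where 8216 of 11103 probe sets passed. With shPC25, 7 were then higher and 5 lower, where 5244 passed. Between the hairpins 3 were then higher and 8 lower, where 6168 passed. The count for shPC25 was 6 in place of 10 without scram array 3, and that for shPC28 was 14 in place of 9 when arrays were centred on olfactory receptor probe sets.

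Ddit3, Nupr1 and Cebpg rose with both hairpins. Ddit3, which encodes the stress factor CHOP, measured 12.47, 12.43 and 12.42 in shPC28 cells, 11.93, 11.53 and 12.01 in shPC25 cells, and 10.70, 10.18 and 10.12 in scram cells. It rose by 2.11 ± 0.18 with shPC28 (adjusted p = 1.82e-05) and by 1.49 ± 0.18 with shPC25 (adjusted p = 0.000745), and its second probe set rose by 2.48 with shPC28 and 2.02 with shPC25. Nupr1, a stress-induced chromatin factor, rose by 1.44 with shPC28 and 1.47 with shPC25, and Cebpg, a partner of ATF4 in binding DNA, rose by 0.94 with shPC28 and 1.12 with shPC25. Impact, an inhibitor of the kinase GCN2 that senses uncharged tRNA, fell by 1.67 with shPC28 and 1.36 with shPC25. Eif2ak3, the kinase PERK of the unfolded protein response, fell by 0.96 with both hairpins. Ppp1r15b, a subunit of the phosphatase that reverses the kinases' mark on eIF2α, fell by 1.76 with shPC28 (adjusted p = 4.31e-05), while its shPC25 change was -0.48 (adjusted p = 0.0868). Each of these calls held with any array left out.

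Several other regulators differed between the hairpins, as some of the carriers did. Myc, which is known to raise several of the carriers, measured 16.12, 16.26 and 16.18 in shPC28 cells, 16.99, 17.08 and 16.93 in shPC25 cells, and 16.79, 16.58 and 16.60 in scram cells. It fell by 0.47 ± 0.10 with shPC28 (adjusted p = 0.00427) and rose by 0.34 ± 0.10 with shPC25 (adjusted p = 0.0394, a call lost with any of 6 arrays left out), and the hairpins differed by -0.81 ± 0.10 (adjusted p = 0.000418). Cebpb, which also binds the C/EBP-ATF element, rose by 0.61 ± 0.13 with shPC25 (adjusted p = 0.0129; lost without scram array 3), while its shPC28 change was -0.33 (adjusted p = 0.0776), and the hairpins differed by -0.94 ± 0.13 (adjusted p = 0.000967). Trib3, a target and inhibitor of ATF4, rose by 0.58 with shPC25 (adjusted p = 0.0418; lost with any of 6 arrays left out) and differed between the hairpins by -0.79 (adjusted p = 0.00859). Nfe2l2, the gene of NRF2, fell by 0.71 ± 0.23 with shPC28 (adjusted p = 0.0345). That call was lost without scram array 1 or 2 or shPC28 array 2, and after quantile normalization or median centring. Nfe2l2 differed between the hairpins by -0.97 ± 0.23 (adjusted p = 0.0135), a call lost after quantile normalization. Atf3, a stress-induced factor of the ATF family, fell by 0.42 with shPC28 (adjusted p = 0.0435), a call lost with any of 6 arrays left out. Atf3 differed between the hairpins by -0.75 (adjusted p = 0.0049), a call that held under all alternatives. Keap1, the inhibitor of NRF2, fell by 0.61 ± 0.10 with shPC25 (adjusted p = 0.00382). Its shPC28 change had the same sign, at -0.27 (adjusted p = 0.0646). The hairpins differed by 0.34 ± 0.10 (adjusted p = 0.0375), a call lost with any of 6 arrays left out. Ppp1r15a, the stress-induced counterpart of Ppp1r15b, rose by 0.59 with shPC25 (adjusted p = 0.0487; lost with any of 7 arrays left out), and its difference between the hairpins, -0.24, did not pass (adjusted p = 0.383).

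**Figure D4:**
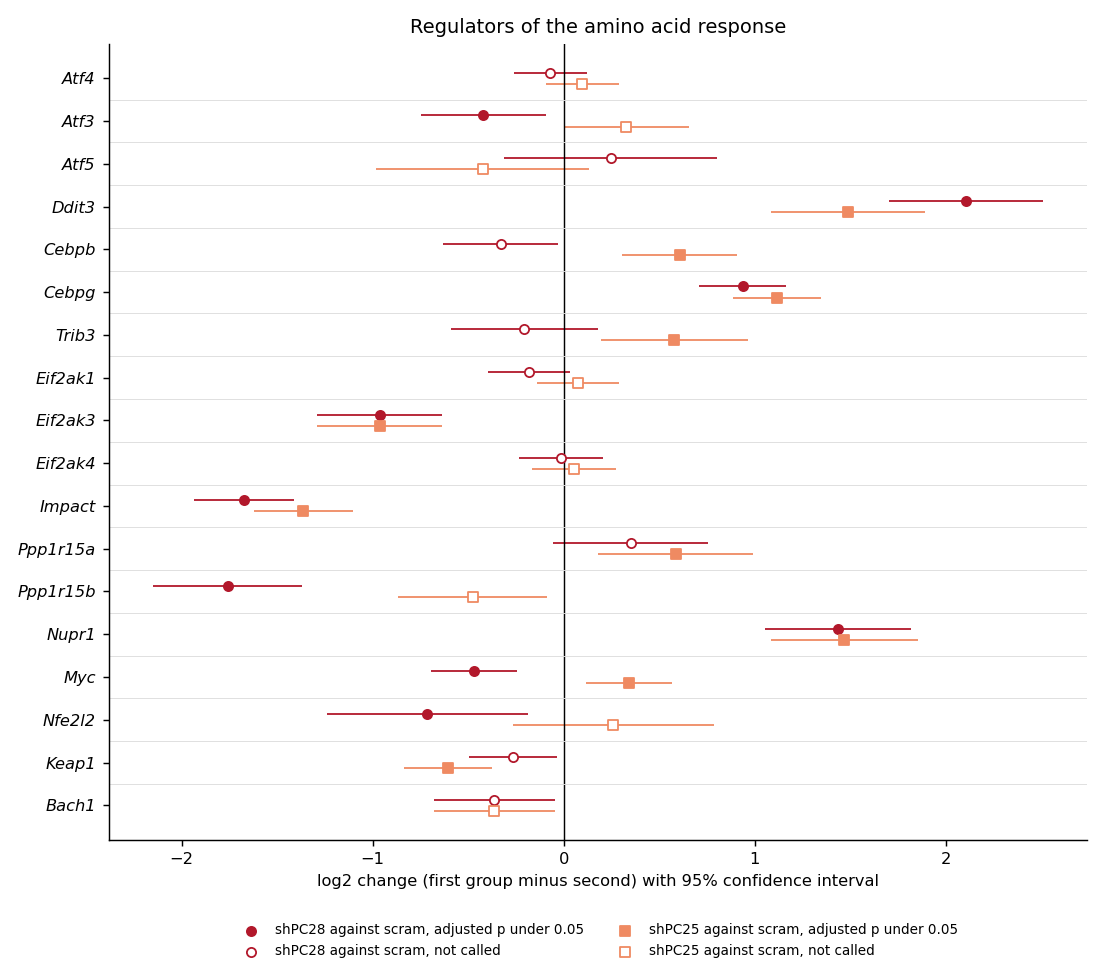
Log2 change (horizontal axis) of 18 regulators of the amino acid response with 95% confidence intervals, for shPC28 against scram and shPC25 against scram; filled symbols passed at an adjusted p under 0.05. Ddit3, Nupr1 and Cebpg lie right of 0 and Impact and Eif2ak3 left of 0 for both hairpins, the intervals of Atf4 include 0, and Myc lies on opposite sides.

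Genes of amino acid synthesis that ATF4 is known to raise were higher or did not pass. Targets of ATF4 in the other lists did not all rise. Chac1 fell by 4.88 with shPC28 and by 1.89 with shPC25. Trib3 rose by 0.58 with shPC25, and its shPC28 change of -0.21 did not pass (adjusted p = 0.367). Of the 12 synthesis genes on the array, 8 were higher and 0 lower with shPC28, with a median change of 0.44. That is 66.7%, against 21.2% of all probe sets that passed as higher, whose median change was 0.10. With shPC25, 6 were higher and 0 lower, or 50%, against 9.19% of all probe sets, and the median was 0.39, against 0.04 for all. The count for shPC28 was 4 when arrays were centred on olfactory receptor probe sets. Without the dimmer 50% of probe sets, 10 of the genes were left. Of these, 9 were higher and 0 lower with shPC28, where 8216 of 11103 probe sets passed, 47.1% of them higher. With shPC25, 6 were then higher and 0 lower, where 5244 passed, 47.3% of them higher. Gpt2, which makes alanine, rose by 1.29 with shPC28 (adjusted p = 3.13e-05) and 1.11 with shPC25 (adjusted p = 0.000487). Psph, the last enzyme of serine synthesis, rose by 1.18 with shPC28 and 0.99 with shPC25, the mitochondrial folate enzyme Mthfd2 by 1.0 with shPC28 and 0.70 with shPC25, and Aldh18a1, which begins proline synthesis from glutamate, by 0.59 with shPC28 and 0.47 with shPC25. With shPC28 the calls also took in Bcat1 (0.45), Shmt2 (0.42), the dim Cbs (0.42) and Phgdh (0.40), and the last 3 were each lost with at least 1 array left out. With shPC25 they took in Got1, the cytosolic enzyme that interconverts aspartate and glutamate, at 0.64 ± 0.09 (adjusted p = 0.00122), and the dim Cth, which makes cysteine, at 1.10 ± 0.32 (adjusted p = 0.041; lost with any of 6 arrays left out). Got1 was the 1 gene of the list that passed between the hairpins (-0.54, adjusted p = 0.00169), where up to 6 passed under other settings. Asns, the asparagine synthetase gene that ATF4 is best known for, had a change of 0.20 with shPC28 and 0.16 with shPC25, and neither passed.

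Genes of glutathione, which draws on the cystine that Slc7a11 imports, passed in both directions. Of 10 on the array, 2 were higher and 6 lower with shPC28 (80.0%, against 41.7% of all probe sets; median change -0.39), and 1 was higher and 3 lower with shPC25 (40.0%, against 20.4%; median -0.20), where the count was 8 when the variance was allowed to follow the signal level and 1 or 2 without any 1 of the scram arrays, without shPC25 array 1 or 3 or without shPC28 array 3. Chac1, an enzyme that degrades glutathione and a target of ATF4, measured 5.37, 5.0 and 5.76 in shPC28 cells, 8.09, 8.04 and 8.98 in shPC25 cells, and 10.73, 10.26 and 9.79 in scram cells. The 3 groups lay far apart, with log2 changes of -4.88 with shPC28 and -1.89 with shPC25. Gsr, which regenerates reduced glutathione, fell by 0.94 with shPC28 (adjusted p = 0.000112) and 0.47 with shPC25 (adjusted p = 0.0147; lost without scram array 2 or 3), and Gclc, the catalytic subunit of the first step of its synthesis, fell by 0.73 with shPC28 and 0.33 with shPC25. Gclm, the other subunit of that step, fell by 0.58 with shPC28, Txnrd1, a thioredoxin reductase, by 0.47 and Cd44, which holds xCT at the membrane, by 0.30. Gss, which completes glutathione, rose by 1.21 with shPC28 (adjusted p = 5.27e-05) and 0.41 with shPC25, and the lipid peroxidase Gpx4 rose by 0.89 with shPC28. The shPC25 calls of Gclc and Gss were lost with any of 8 and 7 arrays left out, and the shPC28 call of Cd44 with any of 4. Between the hairpins 9 of the 10 passed (90.0%, against 26.2%), 3 higher and 6 lower in shPC28 cells, a count that was 5 without shPC25 array 3, shPC28 array 1 or shPC28 array 3. All 10 were among the brighter 50% of probe sets, which passed more often. Without the dimmer 50%, 3 were higher and 6 lower with shPC28, where 8216 of 11103 probe sets passed. With shPC25, 2 were then higher and 4 lower, where 5244 passed. Between the hairpins 3 were then higher and 6 lower, where 6168 passed.

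The genes by which cells sense amino acids, and the carriers of the lysosome, moved in both directions. Of 24 on the array, 6 were higher and 9 lower with shPC28 (62.5%, against 41.7% of all probe sets; median change -0.09, or 0.01 when arrays were centred on their medians), and 3 were higher and 6 lower with shPC25 (37.5%, against 20.4%; median 0.07). Between the hairpins, 4 were higher and 8 lower in shPC28 cells (50%, against 26.2%). Without the dimmer 50% of probe sets, 21 of the 24 were left. Of these, 7 were higher and 11 lower with shPC28, where 8216 of 11103 probe sets passed. With shPC25, 5 were then higher and 7 lower, where 5244 passed. Between the hairpins 6 were then higher and 9 lower, where 6168 passed. Sesn2, a leucine sensor that restrains mTORC1, measured 5.90, 6.56 and 5.09 in shPC28 cells, 8.16, 8.16 and 8.42 in shPC25 cells, and 9.65, 9.27 and 9.45 in scram cells. It fell by 3.61 ± 0.31 with shPC28 (adjusted p = 2.04e-05) and by 1.21 ± 0.31 with shPC25 (adjusted p = 0.0249; lost with any of 5 arrays left out). Its relative Sesn1 fell by 2.24 with shPC28 and 1.52 with shPC25. Among the GTPases that bring mTORC1 to the lysosome, Rragc fell by 1.28 with shPC28 and 0.53 with shPC25, and Rragd by 1.25 with shPC28 and 1.08 with shPC25. Slc36a1, a lysosomal exporter of small amino acids, fell by 1.12 with shPC28 and 0.97 with shPC25, and Castor2, a homologue of the arginine sensor, fell by 2.30 with shPC28.

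In the other direction, Lamtor4 measured 11.25, 11.50 and 11.48 in shPC28 cells, 9.75, 10.15 and 10.15 in shPC25 cells, and 9.91, 9.82 and 9.61 in scram cells. This subunit of the Ragulator scaffold rose by 1.63 ± 0.14 with shPC28 (adjusted p = 2.34e-05), and its shPC25 arrays overlapped scram, with a change of 0.24. Lamtor2 rose by 1.02 with shPC28 and 0.43 with shPC25, and the arginine sensor Castor1 by 0.89 with shPC28 and 0.46 with shPC25. Another increase with shPC25 was in Flcn, which acts on the Rag GTPases, at 0.35, and a further decrease was in Slc66a1, a lysosomal exporter of cationic amino acids, at -0.56. The shPC25 calls of Lamtor2, Castor1, Flcn and Slc66a1 were lost with any of 4 to 5 arrays left out. The count for shPC25 was 4 or 5 in place of 9 without any 1 of the scram arrays or shPC25 array 2.

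**Figure D5:**
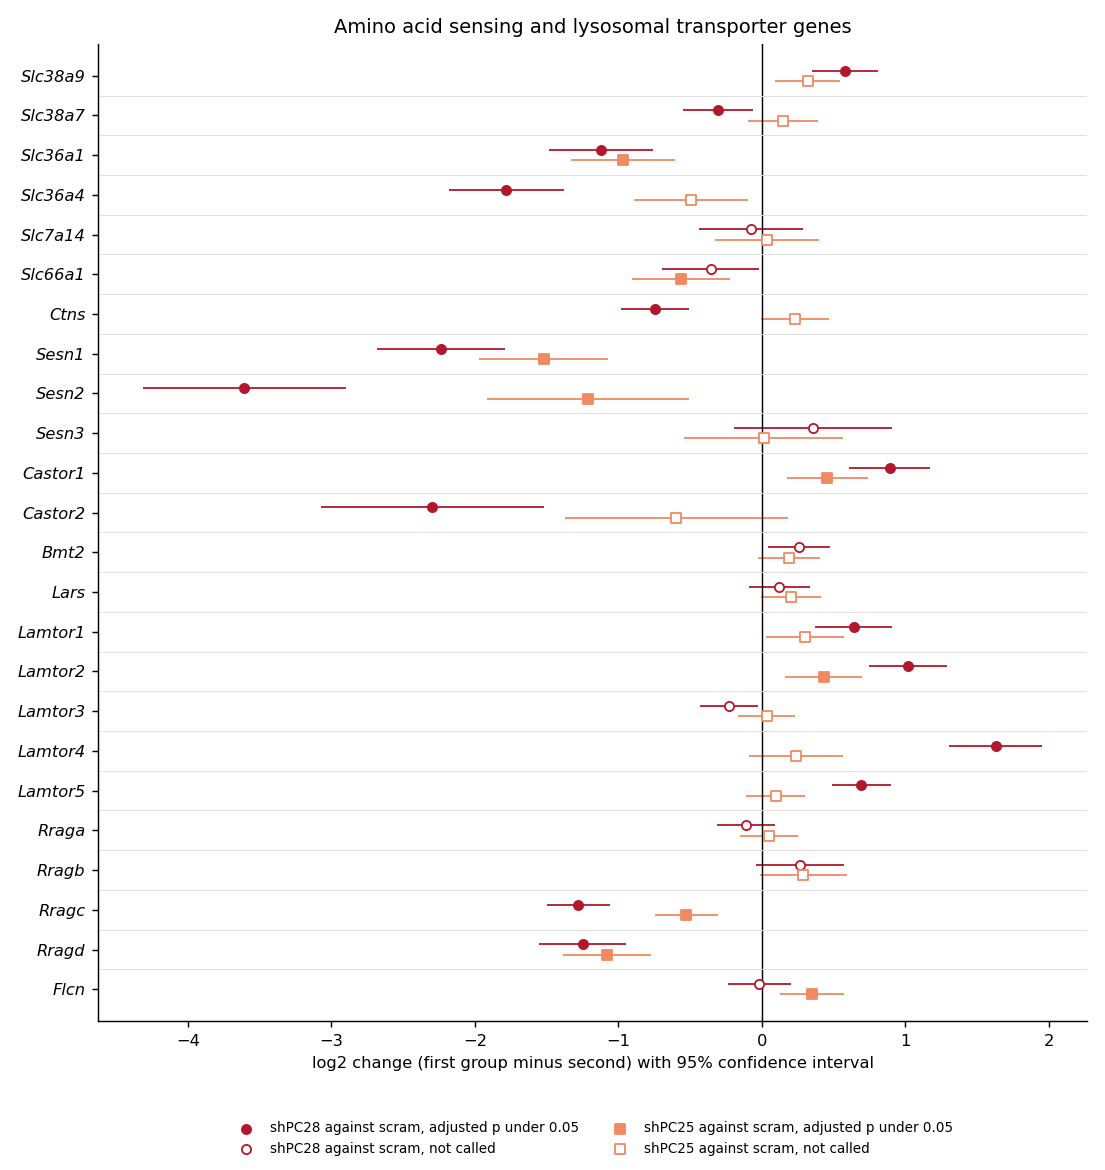
Log2 change (horizontal axis) of 24 amino acid sensing and lysosomal transporter genes with 95% confidence intervals, for shPC28 against scram and shPC25 against scram; filled symbols passed at an adjusted p under 0.05. Sesn1, Sesn2, Rragc, Rragd and Slc36a1 lie left of 0 and Castor1 and Lamtor2 right of 0 for both hairpins, and Lamtor4 rises with shPC28 by 1.63.

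The genes whose pattern over the 9 arrays was most like that of each member were listed as a description, among 10007 named genes above the median signal. Likeness was the root mean square difference of values centred on each gene's own mean, and the 9 arrays share groups, so that any gene with like group differences scores well. Slc3a2 was closest to the organic cation transporter gene Slc22a4 (0.0497) and to Nid1 (0.060), and Slc6a9 was closest to Slc3a2 and then to Rfk (0.0634). Slc38a2 was closest to Aifm1 (0.0549) and to Rragc (0.0569), which had log2 changes of -1.28 with shPC28 and -0.53 with shPC25 beside -1.21 with shPC28 and -0.54 with shPC25 for Slc38a2. Slc38a1 was closest to Srebf2 (0.0454) and Stk11 (0.0464), and Slc7a1 to Traf6 (0.0665) and Arrdc3 (0.0906). Slc7a5 was closest to Lig3 (0.055) and Mtdh (0.0558), and Slc1a5 to Cdv3 (0.044) and Atrx (0.0443). The differences were larger for Slc1a4 and Slc7a11: the nearest were the immediate early genes Junb (0.219) and Nr4a3 (0.246) for Slc1a4, and Upp1 (0.217) and Jdp2 (0.251) for Slc7a11. These 2 members also varied most about their own mean, by a root mean square of 0.637 for Slc1a4 and 0.511 for Slc7a11. That spread was 0.498 for Slc38a2 and 0.104 for Slc1a5. The differences were not scaled to it, so they do not rank the members by closeness.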

How the data were processed

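The members and all gene lists were chosen with earlier results of these data known. Biotin-labelled cDNA from total RNA was hybridised to Clariom S mouse arrays, and the authors processed them with the Transcriptome Analysis Console; the deposited values, 1 per probe set, were taken as log2 signals comparable between arrays, judged from their range and array medians. The normalization, log base and genome build were not given in the sources used here. Values were used as deposited, with no probe set removed. In R 4.3.3 with limma 3.58.1, lmFit and eBayes were run on all 9 arrays together, with a mean for each group, and two-sided p-values were adjusted by Benjamini-Hochberg over 22206 probe sets, with 0.05 as the threshold. Symbols came from the platform annotation, with the brighter probe set standing for a gene with several. Of the listed genes, Gcn1, Pycr1 and Ggt1 were not matched. Named were all members, Pcx, per list and hairpin up to 3 called genes in each direction (every called gene where 10 or fewer were called), and the 2 genes closest in pattern to each member; other named genes, among them Atf4, Asns, Slc7a8 and Slc7a10, were chosen with their values seen. The fit was tested on simulated data. The number of arrays limits precision: the median standard error was 0.16. The alternatives were 2 filters on dim probe sets, quantile normalization, centring on array medians or on olfactory receptor probe sets, 3 variance models, array weights, a replicate block, the 2 compared groups alone, and each array left out.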

Additional observations from a re-analysis of the deposited data

Results flagged for a closer look

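For 4 transporters the change with shPC28 differed from the change with shPC25, tested as the difference between the hairpins in the limma fit, with no overlap between the arrays of the 2 hairpins. That difference passed for 26.2% of all probe sets, and 39.5% had no overlap. Without the dimmer 50% of probe sets it passed for 6168 of 11103, and the share without overlap was not counted there. The difference was -1.47 ± 0.18 (SE) for Slc1a4 (adjusted p = 0.000454), whose mean was 10.74 in shPC28 cells, 12.20 in shPC25 cells and 11.28 in scram cells. It was -0.67 ± 0.13 for Slc7a1 (adjusted p = 0.00588), with means of 13.79 in shPC28 cells, 14.46 in shPC25 cells and 13.87 in scram cells. It was -0.51 ± 0.08 for Slc38a1 (adjusted p = 0.00177), with means of 15.39 in shPC28 cells, 15.90 in shPC25 cells and 16.05 in scram cells. It was -0.67 ± 0.09 for Slc38a2 (adjusted p = 0.00071), with means of 14.94 in shPC28 cells, 15.61 in shPC25 cells and 16.15 in scram cells. Pcx was higher in shPC28 than in shPC25 cells by 1.28 ± 0.15 (adjusted p = 0.000307); its part in these differences was not tested.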

How the results depend on the processing

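The number of members called stayed between 4 and 6 for shPC28 against scram, between 6 and 9 for shPC25 against scram and between 4 and 6 between the hairpins over all alternatives, and with each array left out it was 4 to 5 for shPC28, 6 to 7 for shPC25 and 4 to 5 between the hairpins. Over all probe sets the shPC25 count of 4541 was 3021 without scram array 3, and leaving out an array gave 3021 to 4512; the count was 7915 to 9123 for shPC28 (9265 with all arrays) and 4681 to 5488 between the hairpins (5829 with all arrays). Calls were lost for Slc1a4 with shPC28 and for Slc7a1 and Slc7a11 with shPC25, as described above; Slc7a11 with shPC25 also lost its call without variance moderation (adjusted p = 0.0656). Only values that did not pass changed sign. These were Slc1a5 with shPC28 (-0.08 with centring on olfactory receptor probe sets), Slc7a1 with shPC28 (0.0267 with centring on array medians, and -0.18 to 0.05 with each array left out), and 2 differences between the hairpins: Slc3a2 (-0.0685 after quantile normalization, -0.10 with olfactory centring, and -0.0117 to 0.0533 with each array left out) and Slc6a9 (-0.0433 with olfactory centring).

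Of the probe sets called, 50.8% were higher for shPC28, 44.9% for shPC25 and 44.8% between the hairpins. Centring on array medians gave 60.7% for shPC28, 61.5% for shPC25 and 44.8% between the hairpins, and centring on olfactory receptor probe sets gave 31.5% for shPC28, 32.0% for shPC25 and 26.5% between the hairpins. Over all probe sets the median change was then, with median centring, 0.20 for shPC28, 0.14 for shPC25 and 0.045 between the hairpins, and with the olfactory one -0.10 for shPC28, -0.03 for shPC25 and -0.09 between the hairpins. The cause of these shifts was not tested.

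The labels give each group the array numbers 1 to 3 without saying what they mark. Deviations of same-numbered arrays from their group means correlated at -0.184 to -0.139 (9 pairs), against 0.047 to 0.133 for different numbers, and 0 of 9 arrays were closest to their own number, so the numbers were not taken as pairs. Deviations within a group sum to 0, so these 3 observations are tied to each other and are not separate evidence. All 9 same-number pairs were negative, and the cause of that was not tested. A fit with the number as a block called 4 members for shPC28, 6 for shPC25 and 4 between the hairpins, and 8074 probe sets for shPC28, 3073 for shPC25 and 4552 between the hairpins. Under that block Slc1a4 with shPC28 had an adjusted p of 0.0545 and Slc7a11 with shPC25 one of 0.0571.

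Counts of called genes in the surrounding lists were less stable than those of the members: of 315 counts under an alternative, 29 moved by more than 1.5 times, 3 of them in shPC28 against scram, 17 in shPC25 against scram and 9 between the hairpins. Of the calls of single genes in those lists, 38 of 48 for shPC28, 18 of 33 for shPC25 and 23 of 34 between the hairpins held under every alternative run, and none changed sign.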
